A study of Mus musculus with 11 samples.

Results

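Integrin genes were examined in 11 clonal mouse lines of granulocyte-monocyte progenitors (GMPs), precursors of neutrophils and monocytes. The 10 subunits described were Itgb3, Itga2b, Itgav, Itgam, Itgal, Itgb2, Itga4, Itgb1, Itga5 and Itgb7, taken from 37583 gene IDs in the count data, and each matched 1 ID. They were selected on values of these same clones, since the list was drawn up with the knockout against wild-type differences and the clone-by-clone levels known. The values of that comparison are therefore a description and support nothing by themselves. Of the 10 subunits, 10 passed the filter on low counts. The lines came from fetal liver progenitors of C57BL/6 mice at embryonic day 15.5. There were 6 wild-type (WT) clones and 5 clones with a knockout of Taz (KO), the gene of the cardiolipin-remodelling enzyme tafazzin. All 11 carried retroviral ER-Hoxb8, an estrogen-dependent Hoxb8 fusion that holds progenitors in an immature, dividing state, and all grew in 0.5 uM beta-estradiol, 10% serum and stem cell factor at about 50 ng/ml. Each line descends from 1 cell and is immortalised, so a clone is a cell line and not an animal. RNA was taken from whole cultures of each clone.

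Integrins are cell surface receptors made of an alpha and a beta subunit, which hold cells to the extracellular matrix and to other cells. A beta subunit usually needs an alpha partner to reach the surface, so the mRNA of either subunit alone does not give the amount of receptor. In blood progenitors, alpha 4 beta 1 and alpha 5 beta 1 bind VCAM-1 and fibronectin in the marrow and fetal liver. The beta 2 integrins LFA-1 (alpha L) and Mac-1 (alpha M, also called CD11b) serve adhesion, migration and phagocytosis of leukocytes. The beta 3 subunit pairs with alpha IIb (CD41) in the platelet fibrinogen receptor and with alpha V in the vitronectin receptor. The beta 7 subunit pairs with alpha 4 in a gut-homing receptor.

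Gene counts totalled 19778119 to 27431544 per clone. Taz stood at 37.0 to 43.8 CPM (read counts relative to library size, with library sizes scaled by the trimmed mean of M-values, TMM) in the WT clones and at 2.21 to 4.09 CPM in the KO clones, so 11 of 11 libraries matched their labels. All 10 GMP markers checked, among them Mpo, Prtn3, Ctsg, Kit and Cd34, were detected, and together they summed to 13190 to 22630 CPM in WT and 12290 to 20380 CPM in KO clones. WT 2D stood apart. Its 14 late neutrophil markers summed to 1611 CPM, while the remaining 10 clones had 22.1 to 154 CPM. Clone names begin with a digit (WT 1 and 2, KO 3 and 4) that the labels do not explain, called the title number below. Whether clones with the same digit derive from a shared culture or animal is not stated, so p-values measure the spread between these clones, which may be partly technical.

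The beta 1 subunit was the most abundant integrin transcript in these progenitors. Compared per length, as CPM per kilobase of the principal transcript, Itgb1 stood at 140 ± 5.57 (SD, n = 11 clones). It was followed by the leukocyte subunit Itgal at 80.7 ± 20.2 and the VCAM-1 receptor subunit Itga4 at 79.4 ± 14.7. Over the 11 clones these last 2 did not differ beyond their spread, since Itgal was the higher in 6 of 11 clones. By genotype, Itgal had the lower mean in WT clones (67.5 ± 15.8 against 79.7 ± 17.0, SD, n = 6). It had the higher mean in KO clones (96.6 ± 11.4 against 78.9 ± 13.3, SD, n = 5). The WT means lay within their spread, and neither gene was called between genotypes. Itga2b, the alpha IIb subunit that also marks early progenitors, came next at 43.8 ± 14.3, and the common leukocyte subunit Itgb2 at 34.1 ± 4.89 was within its spread. The fibronectin receptor subunit Itga5 stood at 20.6 ± 2.84. At the lower end Itgb7 (13.3 ± 8.32), Itgb3 (12.0 ± 5.43), Itgam (9.50 ± 3.04) and Itgav (7.58 ± 0.633) each lay within the spread of its neighbour. These means and spreads pool the genotypes. In WT clones Itgb3 (15.7 ± 4.42) had a higher mean than Itgb7 (8.40 ± 3.53). In KO clones it was the lower, at 7.53 ± 1.92 against 19.1 ± 8.94 (SD). With the length of all annotated exons in place of the principal transcript, Itgb2 (33.2) passed Itga2b (27.6) and the rest of the order was the same. Of the integrin subunits outside the 10, Itga6, a laminin receptor subunit, stood at 81.8 ± 18.5 per kilobase, within the spread of Itgal and Itga4, and is named here after its value was seen. With the length of all annotated exons it stood at 39.1, below Itgal (63.9) and Itga4 (55.4), so its place depends on the length used.

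**Figure D1:**
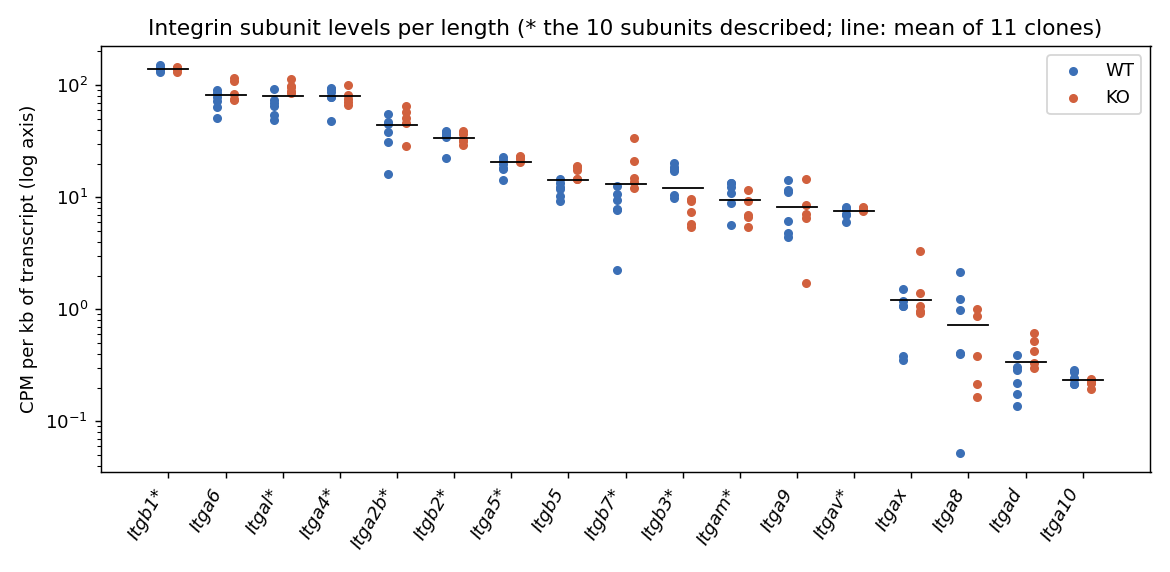
Each point is a clone (blue WT, n = 6, orange KO, n = 5) and each line the mean of 11 clones, in CPM per kilobase of the principal transcript on a log axis, for integrin subunits with a mean of at least 0.1, with a star on the 10 subunits described. Itgb1 lies highest at 140, and Itgb3 is the subunit among the 10 whose WT and KO points separate. Itgb2l, a gene related to Itgb2 with a mean of 1.025, is not drawn.

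Promoter sequences are given for 3 subunits because WT 2D, described above, was the lowest of all 11 clones in Itga2b and Itgb7 and the highest in Itgam, which encodes the myeloid maturation antigen CD11b. The Pearson r of Itgam with Itgb7 over the clones was -0.463, and 0.00117 without WT 2D and with each genotype's mean removed. Each is the stretch of 250 bases before the RefSeq transcription start, on the strand of the gene, in build GRCm38.p6. Capitals mark GAGGAA or its reverse complement, a core that ETS factors such as PU.1 can bind.
Itga2b (chr11:102469884-102470133, minus strand): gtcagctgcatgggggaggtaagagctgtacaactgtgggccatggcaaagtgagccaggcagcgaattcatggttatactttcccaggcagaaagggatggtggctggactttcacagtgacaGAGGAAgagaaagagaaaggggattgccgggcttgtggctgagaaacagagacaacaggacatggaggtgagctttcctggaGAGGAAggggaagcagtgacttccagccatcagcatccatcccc
Itgb7 (chr15:102231936-102232185, minus strand): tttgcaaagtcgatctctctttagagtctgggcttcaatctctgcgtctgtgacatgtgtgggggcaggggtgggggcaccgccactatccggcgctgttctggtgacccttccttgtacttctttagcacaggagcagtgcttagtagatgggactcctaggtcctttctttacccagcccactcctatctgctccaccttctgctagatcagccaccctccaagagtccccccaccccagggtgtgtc
Itgam (chr7:128062390-128062639, plus strand): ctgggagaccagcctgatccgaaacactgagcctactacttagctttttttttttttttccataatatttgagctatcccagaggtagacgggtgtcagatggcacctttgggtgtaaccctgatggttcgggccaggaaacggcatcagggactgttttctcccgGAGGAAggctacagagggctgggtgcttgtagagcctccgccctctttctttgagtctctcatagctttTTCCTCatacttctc
The Itga2b promoter held GAGGAA 126 and 44 bases before the start, and the Itgam promoter held it 84 bases before on the gene's strand and 15 bases before on the other. The Itgb7 promoter held none. RefSeq promoters were matched for 7 of the 10 subunits, and no entry was matched for Itgb3, Itgal and Itgb2. Of these 7, 5 held GAGGAA (Itga2b, Itgav, Itgam, Itgb1 and Itga5), against 23.3% of 32851 mouse promoter windows of the same length. The core GATAA, which GATA factors can bind, was in 0 of 7 and in 22.6% of all windows, and TGATGNAA, a composite site of C/EBP and ATF factors, in 0 of 7 and in 3.45%. Both strands were searched. GAGGAA alone was found in the 7 windows, so no motif overlapped another. A match describes the letters only.

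Between genotypes, the log2 fold changes of the 10 integrin subunits were positive for 5 and negative for 5. In edgeR's quasi-likelihood test across 11900 genes, 1 of the 10 subunits was called lower in KO clones (Itgb3) and 0 were called higher, at an adjusted p under 0.05. Over all tested genes 5.05% were called, 2.29% lower and 2.76% higher. At an unadjusted p under 0.05 there were 4 of 10, against 20.3% of all tested genes. DESeq2 called 2 subunits higher, Itgal and Itgb7, and limma-voom none. The median log2 fold change was 0.05 over the 10 subunits and -0.01 over all tested genes, and the median of its absolute value 0.30 against 0.11. Without WT 2D the counts were the same, 1 lower and 0 higher.

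**Figure D2:**
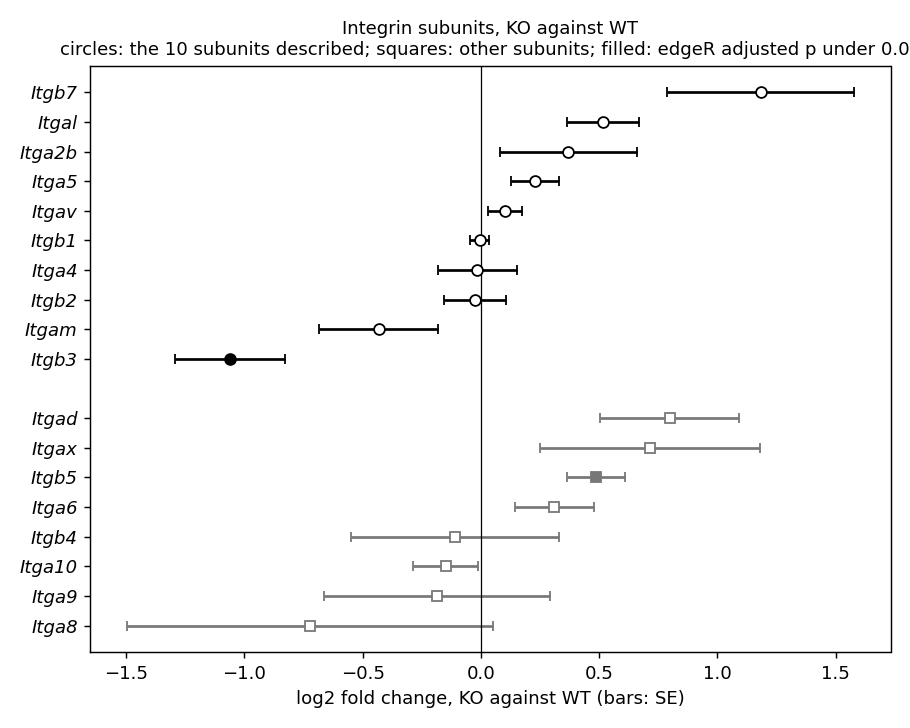
Points are log2 fold changes of KO against WT clones (6 against 5) with standard errors from edgeR, for the 10 subunits described (circles) and 8 other tested subunits (squares). Filled symbols passed an adjusted p under 0.05: Itgb3 at -1.06 and, among the others, Itgb5 at 0.49.

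Itgb3, which encodes the beta 3 subunit, was lower in KO clones, and the genotypes did not overlap. It stood at 56.9 CPM in the lowest, 102 in the median and 117 in the highest WT clone. In KO 3H, 3I, 4J, 4K and 4L it stood at 31.7, 56.0, 43.0, 53.5 and 33.6 CPM. The groups came close to touching, since the lowest WT clones, 2D at 56.9 and 1A at 60.7 CPM, lay just above KO 3I. The means were 90.9 ± 25.5 (SD, n = 6) and 43.6 ± 11.1 CPM (SD, n = 5), and the log2 fold change was -1.06 ± 0.23 (SE). Among all tested genes 5.99% separated the genotypes without overlap, and among the 10 subunits 1 did. Itgb3 passed the threshold in edgeR's test (adjusted p = 0.0304). It did not when any 1 of WT 1B, WT 1C, WT 2F, KO 3H, KO 4J and KO 4L was left out (highest adjusted p = 0.0732), while its log2 fold change stayed between -1.17 and -0.97 when any 1 clone was left out. RNA was measured over whole cultures, so fewer expressing cells and less RNA per cell cannot be told apart.

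Itga2b, the alpha IIb partner of beta 3, had a higher mean in KO than in WT clones and was not called. It ranged from 55.6 over a median of 142 to 190 CPM in WT clones. In KO 3H, 3I, 4J, 4K and 4L it stood at 99.1, 199, 158, 226 and 177 CPM. The groups overlapped widely, with a log2 fold change of 0.37 ± 0.29 (SE), and WT 2D was the lowest of all 11. Without that clone the log2 fold change was 0.21. Within a genotype the 2 subunits went together: the correlation of their log2 CPM was 0.843 after each genotype's mean was removed, and 0.154 without that step (Pearson, 11 clones, a description). Without WT 2D these were 0.788 and 0.156. This was not particular to the 2 partners. With each genotype's mean removed, Itgal had 0.782 with Itgb3 and 0.793 with Itga2b, and Itgb7 had 0.696 and 0.789. Itgam and Itgb2 were negative with both. As a ratio of levels per length, Itgb3 per Itga2b was 0.335, 0.402, 0.489, 0.609, 0.366 and 0.370 in WT 1A, 1B, 1C, 2D, 2E and 2F. In KO 3H, 3I, 4J, 4K and 4L it was 0.190, 0.167, 0.161, 0.141 and 0.113. The ratio was thus 0.428 ± 0.103 (SD, n = 6) in WT and 0.155 ± 0.0291 (SD, n = 5) in KO clones, without overlap. WT 1A and 2D, the WT clones closest to the KO range in Itgb3, were at 0.335 and 0.609 in the ratio, clear of the highest KO value of 0.190. This ratio uses the Itgb3 values that chose the gene and is no separate evidence.

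**Figure D3:**
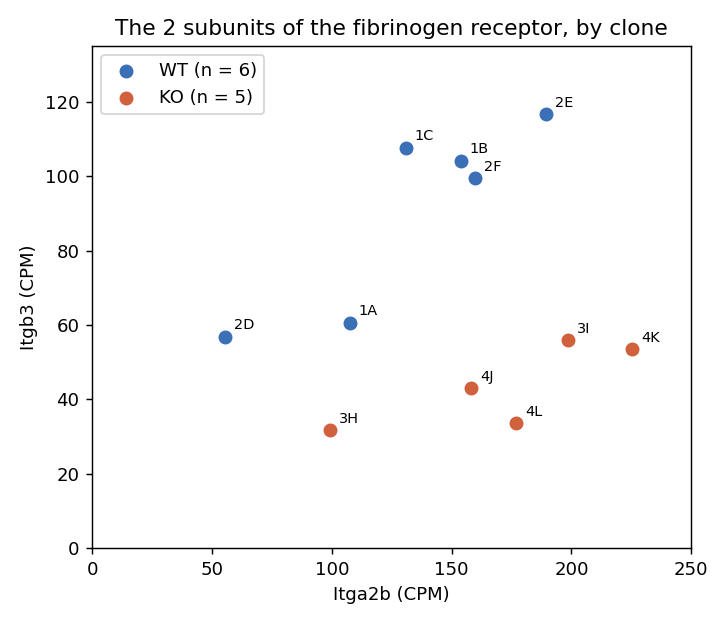
Each point is a clone, with Itga2b on the x axis and Itgb3 on the y axis, both in CPM (blue WT, n = 6, orange KO, n = 5). In both genotypes clones higher in Itga2b tend to be higher in Itgb3, and the KO clones lie lower, with Itgb3 at or below 56.0 CPM while Itga2b reaches 226 CPM.

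Itgav, the other alpha partner of beta 3, was nearly level. It lay between 42.8 and 57.4 CPM in WT and between 53.1 and 57.3 CPM in KO clones, with a log2 fold change of 0.10 ± 0.07 (SE). Itgb3 per Itgav, per length, was 2.15 ± 0.567 in WT and 0.956 ± 0.236 in KO clones (SD, n = 6 and 5). The groups did not overlap but nearly touched, with WT 2D at 1.25 and KO 3I at 1.19. This ratio, too, uses the Itgb3 values that chose the gene and is no separate evidence. Platelet and megakaryocyte markers were low. Of 14, 6 stayed under 1 CPM in every clone, and the sum over the list was 211 to 284 CPM in WT and 192 to 236 CPM in KO clones. Most of it came from Nbeal2 (mean 159 CPM in WT, 175 in KO). Nbeal2 was picked for mention after its values were seen. None of the 14 was at 0 in all clones, and 0 of the 8 tested were called. Among the marker lists, the B lymphoid sum separated the genotypes, at 33.96 to 85.8 CPM in WT and 7.08 to 29.1 CPM in KO clones. Of its 8 genes 1, Pax5, was at 0 in all clones, 6 were tested, all 6 had a negative log2 fold change and 1 was called lower. The part of these markers in the Itgb3 values and in the other genotype differences was not tested.

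Among the beta 2 integrins, the alpha L subunit was the higher in KO clones and the alpha M subunit the lower, but neither was called. Itgal, the LFA-1 subunit, stood at 252 CPM in the lowest, 353 in the median and 484 in the highest WT clone. In KO 3H, 3I, 4J, 4K and 4L it stood at 445, 512, 499, 596 and 458 CPM. All KO clones were above 5 of the 6 WT clones, and WT 2F (484 CPM) lay inside the KO range. The means were 351 ± 82.3 (SD, n = 6) and 502 ± 59.1 CPM (SD, n = 5), and Itgal differed by 0.52 ± 0.15 on the log2 scale (SE; adjusted p = 0.0831 in edgeR). Over 21 alternative settings the adjusted p ran from 0.00724 to 0.172, and it passed the threshold in 3, namely without WT 2F (0.0285), with DESeq2 (0.0128) and with the title number as a random block (0.00724). The block fit is limma-voom with a correlation within title number of -0.215, and limma-voom without the block gave an adjusted p of 0.0673. With counts summed per title number the adjusted p was 0.0505 in edgeR.

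Itgam, encoding CD11b, overlapped between the genotypes, with a lower median in KO clones (32.1 CPM against 53.9 CPM in WT). It stood at 26.3 CPM in the lowest, 53.9 in the median and 62.5 in the highest WT clone, and at 32.1, 25.1, 54.1, 30.8 and 43.4 CPM in KO 3H, 3I, 4J, 4K and 4L. The lowest clones were KO 3I and WT 2E, and the highest WT 2D and 2F. The log2 fold change was -0.43 ± 0.25 (SE; not called). In the GRCm38 annotation Itgam shares 68.7% of its exon bases with Gm49368 on the same strand, whose ID was not among the counted genes, so its level is less certain than the others. Itgb2, the beta subunit shared by alpha L and alpha M, ran from 67.0 over 108 to 115 CPM in WT clones and stood at 94.6, 115, 109, 87.6 and 95.4 CPM in the KO clones in the same order. Its log2 fold change was -0.03 ± 0.13 (SE), and WT 2E was the lowest of all clones, outside the range of the other 10. Per length, the alpha partners Itgal, Itgam, Itgax and Itgad summed to 2.39 ± 0.698 (SD, n = 6) times the level of Itgb2 in WT and 3.20 ± 0.602 (SD, n = 5) times in KO clones, with overlap. In 11 of 11 clones the alpha transcripts together outnumbered those of Itgb2, and Itgal alone was 1.28 to 3.89 times Itgb2.

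The beta 1 subunit was the steadiest of the 10. Itgb1 lay between 497 and 574 CPM in WT and between 505 and 551 CPM in KO clones, and its log2 fold change was -0.01 ± 0.04 (SE). Its coefficient of variation over the 11 clones was 3.98%, against 8.36% for Itgav and 62.8% for Itgb7, the least steady. Itga4, the alpha 4 subunit that pairs with beta 1 and beta 7, overlapped between the genotypes. It stood at 465.8 CPM in the lowest, 813 in the median and 913 in the highest WT clone, and at 742, 978, 800, 690 and 644 CPM in KO 3H, 3I, 4J, 4K and 4L. WT 2D was far below the other WT clones, which began at 764 CPM, and the log2 fold change was close to 0 (-0.01 ± 0.17, SE). Itga5, the alpha subunit of the fibronectin receptor, ran from 62.7 over 83.1 to 100 CPM in WT clones and stood at 97.4, 98.6, 99.8, 103 and 90.9 CPM in the KO clones. The KO values were close together, and 4 of the 5 lay within the WT range (log2 fold change 0.23 ± 0.10, SE; not called). Counting is marked as not stranded, and Itga4 shares 8.04% of its exon bases with antisense Cerkl, which had at most 94 reads in any clone.

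Itgb7, encoding the beta 7 subunit, varied most. It stood at 5.96 CPM in the lowest, 23.2 in the median and 33.6 in the highest WT clone. In KO 3H, 3I, 4J, 4K and 4L it stood at 36.8, 39.7, 56.0, 91.0 and 32.3 CPM. Only WT 2F (33.6 CPM) and KO 4L (32.3 CPM) crossed, and KO 4K had 15.3 times the level of WT 2D. The log2 fold change of 1.18 ± 0.39 (SE) was the largest in size among the 10, yet edgeR did not call it (adjusted p = 0.118). Over 21 alternative settings the adjusted p ran from 0.0151 to 0.254. It passed in 2 of them, DESeq2 and a limma-voom fit with the title number as a random block. Limma-voom without the block gave an adjusted p of 0.108, and edgeR with counts summed per title number gave 0.113. Without WT 2D the log2 fold change was 0.99. Mast cell and basophil markers, whose cells are known to carry beta 7, summed to 1683 to 5099 CPM in WT and 2863 to 5733 CPM in KO clones. WT 2D was the lowest and KO 4K the highest of the 11 clones in this sum as in Itgb7. Between these extremes the order differed. KO 3I had a sum of 5683 CPM with Itgb7 at 39.7 CPM, and KO 4J had 4460 with 56.0. WT 2E had a sum of 5099 with Itgb7 at or below 33.6 CPM, and KO 3H had 2863 with 36.8. Of the 11 markers 9 were tested and 0 called. None of the 11 was at 0 in all clones, and their part in the Itgb7 values was not tested.

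**Figure D4:**
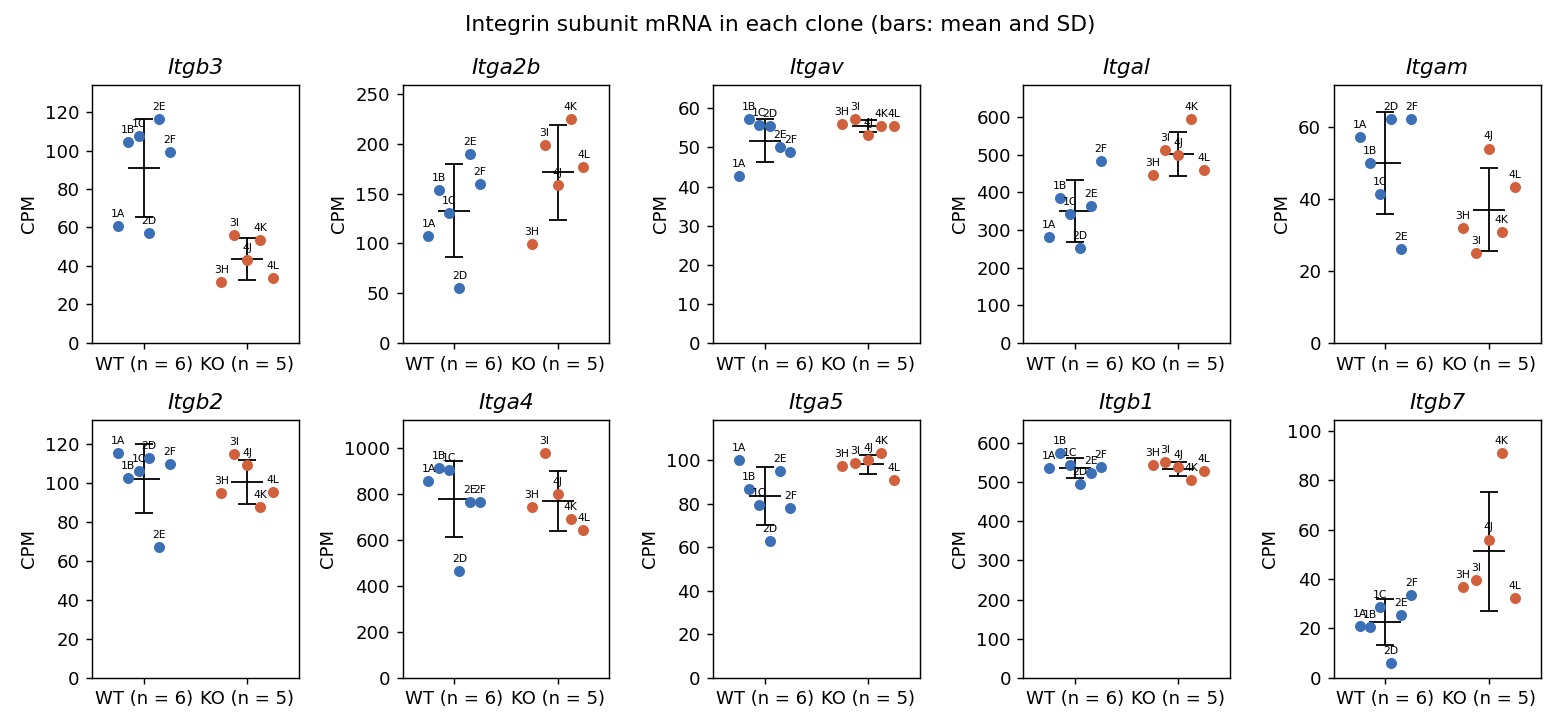
Each point is a clone, named by its title, with CPM on a linear y axis that starts at 0 and the mean and SD of each genotype as black bars (WT, n = 6, KO, n = 5). Itgb3 is the panel without overlap, Itgb1 is nearly flat at 497 to 574 CPM, and Itgb7 spreads from 5.96 to 91.0 CPM.

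Clone by clone, WT 2D and KO 4K held many of the extreme values. WT 2D, the clone with the late neutrophil signal, had the lowest value of all 11 clones for 6 of the 10 subunits (Itga2b, Itgal, Itga4, Itgb1, Itga5 and Itgb7) and the highest for Itgam. Relative to the mean of the other WT clones it stood at 23.1% for Itgb7, 37.5% for Itga2b, 55.4% for Itga4 and 131% for Itgam. KO 4K, with a late neutrophil sum of 22.1 CPM, the lowest of the 11, had the highest value for 4 subunits (Itga2b, Itgal, Itga5 and Itgb7). The late neutrophil sum and the integrin values come from the same libraries, so correlations between them are a description. Over the 11 clones the log2 sum of the late neutrophil markers had a Pearson r of 0.666 with Itgam, -0.860 with Itga2b, -0.788 with Itgb7 and -0.274 with Itgb3. Without WT 2D these were 0.686, -0.604, -0.392 and -0.399. For Itgb1 the sign turned, from -0.341 to 0.401, and for Itga4 -0.683 became -0.0403. For Itga5 -0.715 became -0.171, and for Itgal -0.657 became -0.355. None of the 14 late neutrophil markers was at 0 in all clones, and the part of this signal in the integrin values was not tested.

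With the genotype difference included, the pair most alike in pattern was Itgal and Itgb7. Their Pearson r was 0.890 in log2 CPM over 11 clones and 0.843 without WT 2D. Itga4 and Itgb1, the subunits of alpha 4 beta 1, followed at 0.823 and 0.706 without WT 2D. Itga2b correlated with Itgb7 at 0.798 and with Itgal at 0.775, which became 0.489 and 0.616 without WT 2D. Itgam and Itgb2, which form Mac-1, had an r of 0.595, and Itgal and Itgb2, which form LFA-1, had -0.169. Itgam ran against Itga5 (-0.550, or -0.430 without WT 2D) and Itga2b (-0.530, or -0.395). With each genotype's mean removed, Itgb3 and Itga2b were the pair most alike at 0.843, followed by Itga4 and Itgb1 at 0.824. Itgal and Itgb7 then had 0.793. With WT 2D left out as well, these pairs had 0.788, 0.673 and 0.662 in that order. The values describe 11 clones, and both subunits of a pair were counted in the same libraries. Genotype enters the values from which its mean was not removed.

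**Figure D5:**
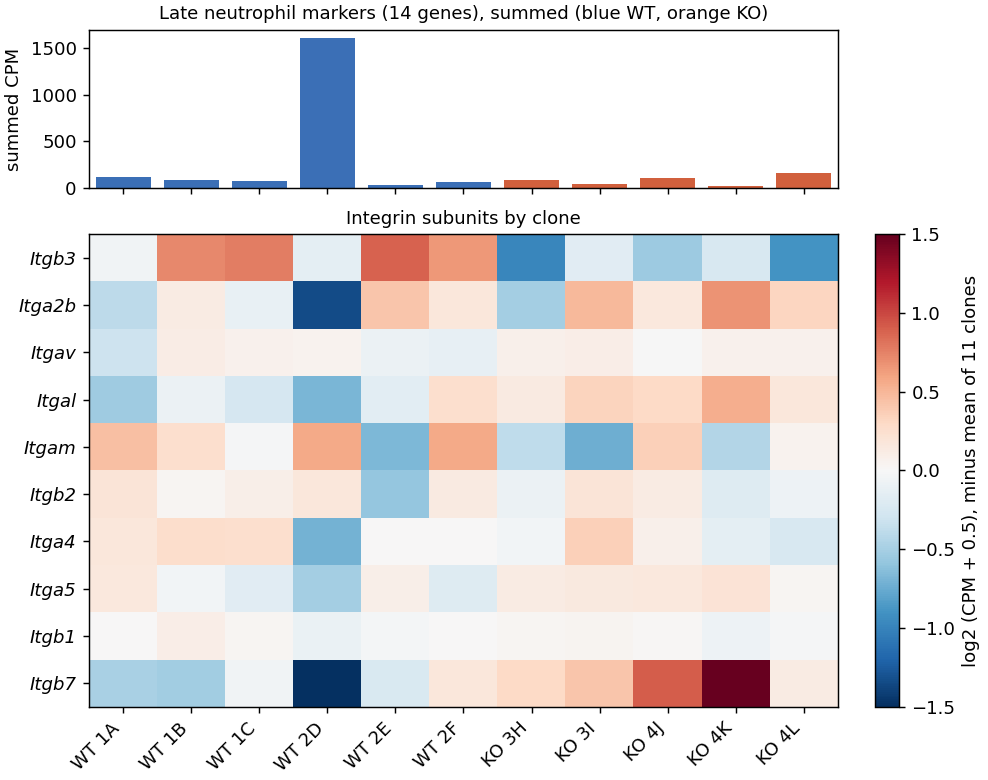
The upper bars show the summed CPM of 14 late neutrophil markers in each clone, and the lower map shows log2 (CPM + 0.5) of each subunit minus its mean over the 11 clones (red higher, blue lower). WT 2D, with 1611 CPM of late neutrophil markers, holds the darkest blue cells, at Itga2b and Itgb7, and KO 4K the darkest red cell, at Itgb7. The colour scale ends at 1.5 in either direction.

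Among 9298 tested genes with a symbol and a mean of at least 5 CPM, those most like Itgb3 over the 11 clones were the fatty acid desaturase Fads2 (Pearson r = 0.983), the sterol-sensing transcription factor gene Srebf2 (0.966) and the acyl-CoA synthetase Acsl4 (0.965). With each genotype's mean removed, these values were 0.959, 0.909 and 0.924. The log2 fold changes of Fads2, Srebf2 and Acsl4 between genotypes were -0.42, -0.21 and -0.14, smaller in size than that of Itgb3. Itga2b was most like Rttn (0.981), Ica1l (0.952) and Osbpl3 (0.944). For Itgal these were Tor4a (0.960), Cox7a2l (0.948) and Ranbp9 (0.946), and for Itgam Ubtd2 (0.948), Plekhg5 (0.940) and Nebl (0.935). Itgb7 was closest to Fut8 (0.938), Man2b1 (0.931) and Sltm (0.928). For Itga5 these were Nupr1 (0.932), Efr3a (0.930) and Slc22a23 (0.929), and for Itga4 Dlc1 (0.911), Cd28 (0.910) and AW554918 (0.895). Itgb2 was most like Mettl15 (0.934), Gas2 (0.895) and Emc7 (0.885), and Itgav most like Dhx35 (0.921), Dtd1 (0.909) and Aktip (0.887). The nearest to Itgb1 were Pdxdc1 (0.892), Fcho2 (0.842) and Ddhd1 (0.836). Without WT 2D the 3 genes named for Itgb3 had 0.984, 0.966 and 0.972, while Dlc1 and Cd28 had 0.764 and 0.756 with Itga4. Of these 30 genes Fads2 and Srebf2 were called lower and Sltm higher in KO clones, beside 5.05% of all tested genes called. The 30 were picked on patterns that include the genotype difference, so these calls are a description.

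No integrin subunit was called between title numbers. Between numbers 1 and 2 of the WT clones (3 against 3) edgeR called 0 of the 10 subunits and 0% of the 11900 tested genes, and between numbers 3 and 4 of the KO clones (2 against 3) likewise 0 of 10 and 0%. At an unadjusted p under 0.05 there were 0 of 10 subunits in both contrasts, beside 3.13% and 1.35% of all tested genes. The smallest of these p-values were 0.0546 for Itga4 in WT and 0.161 for Itgam in KO clones, from the same edgeR fit.

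Of the 16 integrin subunit genes outside the 10, 8 passed the filter, 1 was called higher and 0 lower in KO clones, and their log2 fold changes had a median of 0.10. With 5.05% of all tested genes called, 1 of 8 is no result about these subunits as a list. The gene called was Itgb5, which encodes another partner of alpha V. It ran from 30.5 to 48.2 CPM in WT clones and stood at 57.4, 48.0, 62.2, 60.8 and 47.3 CPM in KO 3H, 3I, 4J, 4K and 4L, and 1 WT clone (2E) lay inside the KO range. Its log2 fold change was 0.49 ± 0.12 (SE; edgeR adjusted p = 0.0463). Leaving out a clone ended the call in 10 of 11 cases, WT 2E being the exception (adjusted p up to 0.108), with the log2 fold change between 0.42 and 0.55 in all settings. Itgb3 and Itgb5, which can both pair with alpha V, were thus called in opposite directions, and Itgav was not called.

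Of 47 genes of integrin activation and the adhesion machinery, 37 passed the filter, 2 were called higher and 1 lower, with a median log2 fold change of 0.01. Over all tested genes 2.76% were called higher and 2.29% lower, and the list's count is not far from that. Fyn, a Src-family kinase that acts downstream of integrins, rose in KO clones. It stood at 44.0, 63.2, 62.4, 60.8, 62.2 and 58.1 CPM in WT 1A to 2F and at 86.2, 106, 93.5, 89.0 and 85.0 CPM in the KO clones, without overlap. The log2 fold change was 0.65 ± 0.10 (SE; edgeR adjusted p = 0.00454), and Fyn was called in 21 of 21 alternative settings. Vasp, which promotes actin filament growth at adhesions, rose from 213 ± 12.3 to 260 ± 7.09 CPM (SD, n = 6 and 5), also without overlap, by 0.28 ± 0.04 on the log2 scale (SE; adjusted p = 0.00514 in edgeR). Vasp was called in 20 of 21 alternative settings and not with counts summed per title number (adjusted p = 0.0531 in edgeR). Fermt3, which encodes kindlin-3, the kindlin of blood cells that binds beta subunit tails, fell from 492 ± 17.2 to 429 ± 32.9 CPM (SD, n = 6 and 5), by 0.20 ± 0.05 on the log2 scale (SE; edgeR adjusted p = 0.0461). KO 3I at 482 CPM lay inside the WT range, and the call of Fermt3 ended without any clone but WT 2D and KO 3I (highest adjusted p = 0.108).

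Of 26 ligand genes, 24 were matched, 12 passed the filter and 0 were called by edgeR in either direction, with 1 at an unadjusted p under 0.05 and a median log2 fold change of -0.11. DESeq2 and limma-voom also called 0. Without WT 2D, 1 was called lower. The most abundant per length were Cd47, an integrin-associated surface protein, at 448 ± 25.7 CPM per kilobase, and Tgfb1, whose latent form alpha V integrins bind, at 341 ± 51.7 (SD, n = 11). With the length of all annotated exons their order turned, with Tgfb1 at 147 and Cd47 at 94.0.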

How the data were processed

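RNA from 11 clones was sequenced as polyA libraries, with 6 WT and 5 KO clones grouped by their titles. The authors deposited raw read counts per gene and clone. STAR, HTSeq, edgeR and build mm9 are named in the submitters' processing notes, without versions. Libraries were strand-specific, per the labels' protocols, and the deposited files' names mark the counting as not stranded. Reads outside genes (5.41 to 6.94%) and ambiguous reads (2.70 to 2.93%) were left out of library sizes. Alignments marked as not unique were also left out. They numbered 82.6 to 85.3 per 100 gene counts in WT and 84.6 to 87.6 in KO clones. Symbols came from Ensembl IDs, 32860 of 37583 matched. The closest libraries of 1 genotype still differed by a chi-square of 15.0 per gene, so all were kept.

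Counts were scaled by TMM, filtered by filterByExpr and tested with edgeR 4.0.16 (robust quasi-likelihood fit, R 4.3.3), with Benjamini-Hochberg adjustment over 11900 genes and calls at an adjusted p under 0.05. Standard errors are the fold change over the root of F. Correlations used log2 CPM with a prior count of 2. Alternatives were RLE and upper-quartile scaling, no filter or a stricter one (1 CPM in 5 clones), DESeq2 1.42.0, limma-voom (limma 3.58.1), a non-robust fit, 3 treatments of the title number, and each clone left out. The test was tried on simulated data.

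The subunits and lists were chosen with earlier results of these data known. All 10 subunits are named. Of each related list, up to 6 called genes are named, or the 2 most abundant per length where none was called, and for each subunit the 3 genes of most similar pattern. Exceptions are marked in the text.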

Additional observations from a re-analysis of the deposited data

Results flagged for a closer look

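In 28 groups, each of the 6 WT or the 5 KO clones, 3 held a clone far from the rest, and chance flags about 1 in 20 groups. Itgb2 in WT 2E was 66.96 CPM, with the nearest WT clone at 102 CPM, a gap of 0.732 of the range against a critical value of 0.625. Itga4 in WT 2D was 465.8 CPM, with the nearest WT clone at 764 CPM (0.666 against 0.625). The summed alpha subunits Itgal, Itgam, Itgax and Itgad per Itgb2, per length, were 4.245 in KO 4K, with the nearest KO clone at 3.10 (0.752 against 0.710).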

How the results depend on the processing

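Over 21 alternatives, Itgb3 stayed lower in KO clones (log2 fold change -1.17 to -0.97) and was called in 13, with adjusted p from 0.000167 to 0.0748. The count of the 10 subunits called lower was 0 without a filter and with set means of the title numbers, and 0 to 1 when a clone was left out. The count called higher was 2 with DESeq2 and with the title number as a random block. The consensus correlation within title number was -0.215 in that block fit. As each title number holds 1 genotype, a negative value lowers the p-values, so a pass there is no allowance for a shared origin. Limma-voom without the block gave adjusted p-values of 0.0376 for Itgb3, 0.0673 for Itgal and 0.108 for Itgb7. With the block these were 0.00339, 0.00724 and 0.0151. With counts summed per title number 0 of the 10 subunits were called higher, and 0 to 1 when a clone was left out. Other subunits called higher numbered 0 without a filter, with summed counts (per title number) or with set means, 2 with the random block, and 0 to 1 when a clone was left out. Machinery genes called higher numbered 1 with summed counts, where Vasp was not called. Those called lower numbered 0 without a filter, with summed counts and with set means, 3 with DESeq2, 5 with the random block, and 0 to 2 when a clone was left out. Ligands called lower numbered 0 to 1 when a clone was left out. The cause of these shifts was not tested. Near-zero log2 fold changes turned sign: Itgb2 at 0.0085 with summed counts, Itga4 at 0.0043 with limma-voom, 0.025 with summed counts and 0.022 with set means, and Itgb1 at 0.0048 with summed counts and 0.0011 with set means. With a clone left out Itgb2 ran from -0.12 to 0.019, Itga4 from -0.13 to 0.043 and Itgb1 from -0.027 to 0.015. The 4 other uncalled subunits Itga2b, Itgav, Itgam and Itga5 kept direction and stayed uncalled in all 21. No paired analysis was possible because WT and KO clones share no number in their titles. The title-number contrasts gave 0 calls among the 10 subunits in all 14 alternatives run.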

Other observations

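Itgb2l, a gene related to Itgb2 and named after its values were seen, was at 20.1 CPM in WT 2D. It was at 5.49, 0.509, 0.227, 0.0368 and 0.332 CPM in WT 1A, 1B, 1C, 2E and 2F, and at 0.356, 0.212, 0.510, 0 and 1.91 CPM in KO 3H, 3I, 4J, 4K and 4L. WT 2D and 1A, its highest clones, also had the highest late neutrophil sums among the WT clones (1611 and 119 CPM), and KO 4L the highest among the KO clones in both.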
